A study of Mus musculus with 8 samples.

Results

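The mitochondrial genome of the mouse carries 37 annotated genes, and all of them were followed here in CD8+ lymphocytes sorted from melanomas of mice given tacrolimus or vehicle. They were taken as every gene whose symbol starts with mt-, out of 55487 genes in the files. They comprise 13 messenger RNAs (mRNAs), 2 ribosomal RNAs (rRNAs) and 22 transfer RNAs (tRNAs). C57BL/6 mice were injected under the skin with B16F10 cells, a pigmented mouse melanoma line. Dosing started 7 to 9 days later, at a tumor volume of about 50 mm3. The 4 tacrolimus mice received tacrolimus (FK506), a calcineurin inhibitor, into the peritoneum at 3 mg/kg every 5 days, and the 4 vehicle mice received vehicle every 5 days. The tumors were harvested and digested 6 days into treatment, flow cytometry was used to sort CD8+ lymphocytes from them, and total RNA was sequenced. Each library was taken as 1 mouse. No allele or transgene is named for either group, and the age and sex of the mice are not given in the sources used here.

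Mitochondrial DNA is transcribed from both of its strands into long precursors. Most of the tRNAs lie between the larger genes, and their excision by the nucleases RNase P and RNase Z releases the mRNAs and rRNAs, which are then modified and, in the case of the mRNAs, mostly given a poly(A) tail. The mRNAs encode core subunits of respiratory complexes I, III and IV and of the ATP synthase (complex V), while every other subunit, and every protein that copies, reads or translates the mitochondrial genome, comes from the nucleus. In T cells, mitochondrial respiration and its spare capacity are associated with memory and lasting function, and tumor-infiltrating CD8+ T cells are known for loss of mitochondrial mass and activity.

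Values are FPKM, the number of fragments divided by transcript length and by library size. Levels of short genes are not directly comparable with those of long ones in these files. The steps of the low values fit transcript length less 240 to 260 bases, which is more than the 204 bases of mt-Atp8, and mt-Nd3 and mt-Nd4l are short as well. Depth was similar between libraries, at an estimated 15800000 to 19200000 fragments, and 12724 to 13628 genes per library reached an FPKM of 1. Markers of the sorted cell type were present but low against those of the tumor. The 7 T cell markers (Cd3e, Cd3d, Cd3g, Cd8a, Cd8b1, Trac and Cd2) summed to 37.9 to 292 FPKM in the tacrolimus libraries and 288 to 1150 in the vehicle libraries. All 7 had the lower mean with tacrolimus, as did 75.7% of all genes tested. The 6 melanoma markers (Pmel, Tyrp1, Dct, Mlana, Tyr and Mitf) summed to 21595 to 26427 FPKM with tacrolimus and 18068 to 32766 with vehicle, and 3 of the 6 had the higher mean with tacrolimus. In bulk RNA of this kind, fewer cells of a type and less RNA per cell cannot be told apart. Each value below is therefore a level in the sorted RNA as a whole, and its share from T cells and from melanoma cells was not tested.

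Of the 37 mitochondrial genes, 14 were measured at an FPKM of 1 or more, all of them in all 8 libraries, and 23 were listed at 0 in every library. The 14 were the 2 rRNAs and 12 of the 13 mRNAs. The 23 were the 22 tRNAs and mt-Nd4l, the mRNA of a small membrane subunit of complex I. The tRNAs are 59 to 75 bases long. In the same files, 1246 of 1251 nuclear genes whose only annotated transcript has 50 to 79 bases, 99.6%, were also listed at 0 in every library. That share stood at 99.9% for 80 to 119 bases and at 69.0% for 600 to 999 bases. A value of 0 for a mitochondrial tRNA therefore shows that no fragment was assigned to it in these files, at a length where nearly no gene has a value.

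**Figure D1:**
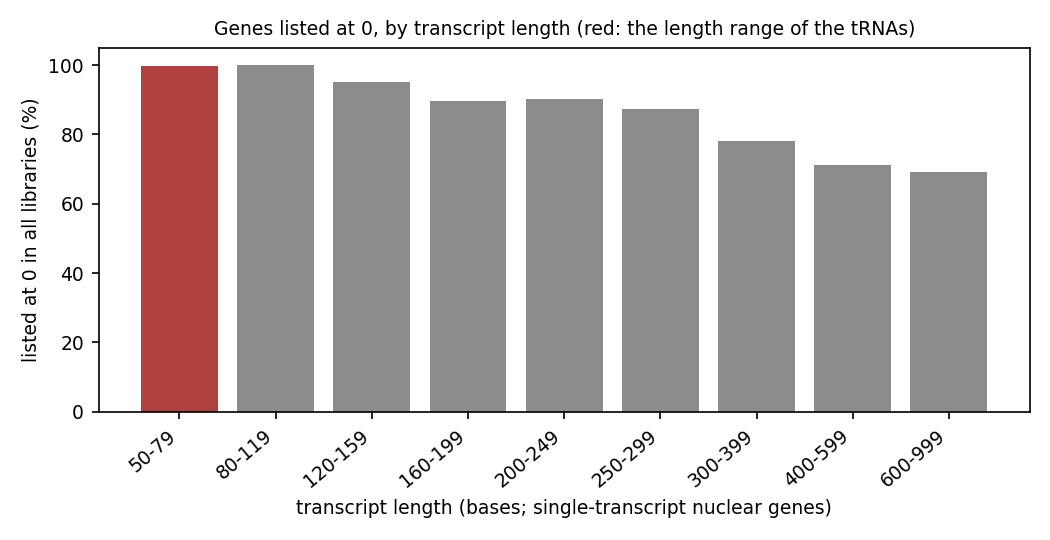
Share of nuclear genes with 1 annotated transcript that were listed at 0 in all 8 libraries (vertical axis, percent), by transcript length in bases (horizontal axis). The bar of 50 to 79 bases, which spans the length of the 22 mitochondrial tRNAs, stands at 99.6%, and the bar of 600 to 999 bases at 69.0%.

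The place of the tRNAs between the larger genes is shown by the stretch that joins mt-Rnr2, the 16S rRNA, to mt-Nd1, a subunit of complex I, at chrM:2651-2775 on the + strand (GRCm38, from the GENCODE M21 transcripts). Lower case marks the end of mt-Rnr2 and the start of mt-Nd1, and capitals mark the 75 bases of mt-Tl1, a leucine tRNA, which fill the gap completely.
mt-Rnr2 to mt-Nd1: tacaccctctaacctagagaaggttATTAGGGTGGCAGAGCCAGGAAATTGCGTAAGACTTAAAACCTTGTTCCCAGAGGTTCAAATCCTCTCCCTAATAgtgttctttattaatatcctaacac
The mean levels of the genes on both sides ran from 4798 to 30456 FPKM, and mt-Tl1 itself was listed at 0. By annotated strand, 12 mRNAs, both rRNAs and 14 tRNAs lie on the + strand of the reference, and mt-Nd6 and 8 tRNAs on the - strand. Whether fragments were counted by strand is not given in the sources used here.

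All 14 measured genes had the higher mean in the tacrolimus libraries, but no gene passed the test. In the limma comparison of 13032 genes, 0 had an adjusted p under 0.05, so percent called was 0, and 0 of the 14 mitochondrial genes were called. The median difference of the 14 genes was 0.56 on the log2(FPKM + 1) scale, tacrolimus minus vehicle. Over all genes tested the median was -0.19. A higher mean with tacrolimus was found for 24.3% of all genes. At an unadjusted p under 0.05, 8 of the 14 were higher and 0 lower, where 1.6% of all genes were higher and 15.8% lower. For 7 of the 14 the lowest tacrolimus library lay above the highest vehicle library, which held for 0.767% of all genes. For 0 of the 14 did the groups separate in the other direction, which held for 10.2% of all genes. Mitochondrial genes are cut from shared precursors, so these counts are not of 14 independent observations. The adjusted p of the 14 genes ran from 0.193 to 0.772 (limma). The direction of the 14 was kept under each of the other scalings run. When libraries were instead scaled by the median of ratios, which moves the median of all genes to -0.00, all 14 again had the higher mean (49.9% of all genes), 10 were higher at an unadjusted p under 0.05 (5.21% of all genes), and 9 had groups that did not overlap (2.99%).

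**Figure D2:**
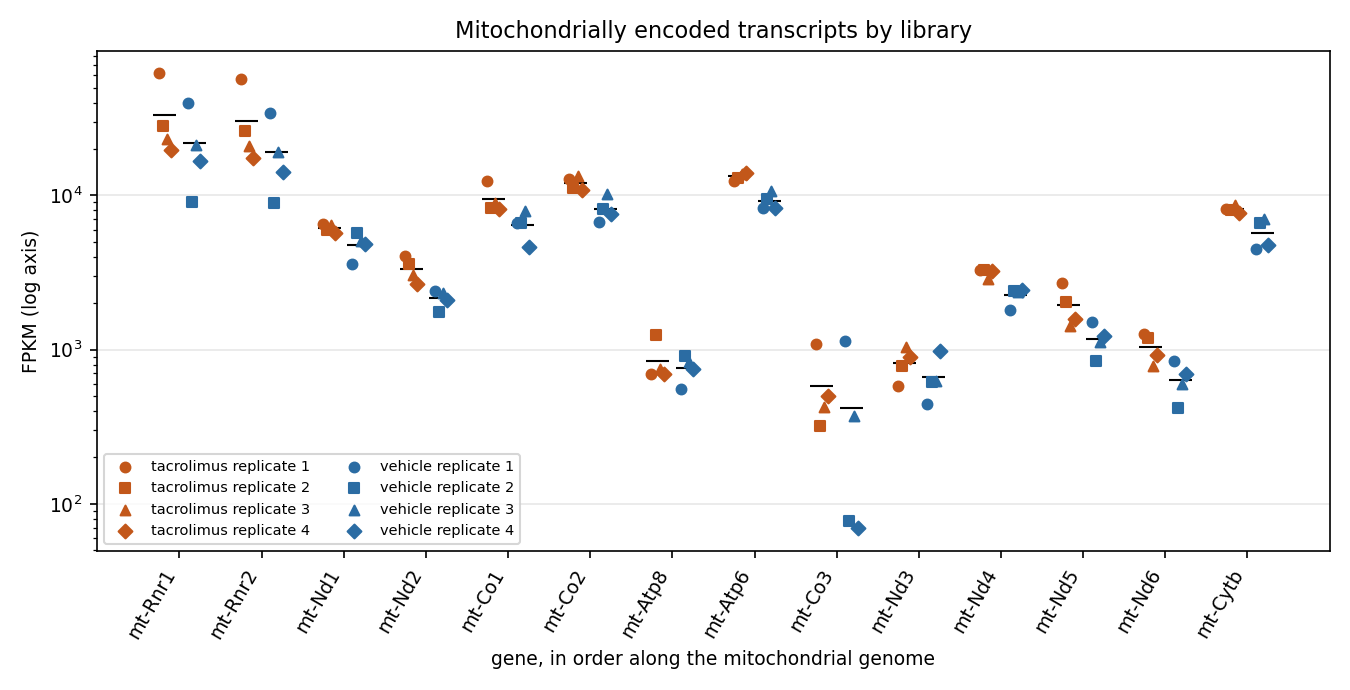
FPKM (vertical axis, log scale) of the 14 measured mitochondrial genes in order along the genome (horizontal axis). Each point is 1 library, with tacrolimus in orange and vehicle in blue, shapes mark the replicate number and black lines the group means. The points of mt-Nd1, mt-Nd2, mt-Co1, mt-Co2, mt-Atp6, mt-Nd4 and mt-Cytb do not overlap between the groups, and those of both rRNAs and of mt-Co3 spread widely within each group.

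Summed by class, the mRNAs did not overlap between the groups, whereas the rRNAs did. The 13 mRNAs summed to 65836, 59158, 61499 and 56921 FPKM in tacrolimus replicates 1 to 4. They summed to 38436, 43630, 49137 and 38359 FPKM in vehicle replicates 1 to 4. Every tacrolimus library was above every vehicle library, at a mean of 60853 ± 3812 (SD, n = 4) against 42391 ± 5130 FPKM (SD, n = 4), 1.44-fold. As a share of the summed FPKM of the library, the mRNAs made up 6.31% to 7.26% with tacrolimus and 4.23% to 5.42% with vehicle. The rRNA sum was 119052, 54264, 44131 and 37326 FPKM with tacrolimus and 74177, 17994, 40526 and 30886 FPKM with vehicle. Its means were 63693 ± 37556 and 40896 ± 24031 FPKM (SD, n = 4 each), 1.56-fold apart, and the groups overlapped. The log2 difference of the rRNA sum was 0.67, and it was 0.31 without tacrolimus replicate 1, 0.33 without vehicle replicate 2 and 1.02 without vehicle replicate 1. Replicate 1 was the highest library for rRNA in both groups, at 13.1% and 8.17% of the summed FPKM, and vehicle replicate 2 was the lowest, at 1.94%.

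The rRNA to mRNA ratio, which does not depend on how a library is scaled, did not separate the groups. It was 1.81, 0.92, 0.72 and 0.66 in tacrolimus replicates 1 to 4 and 1.93, 0.41, 0.82 and 0.81 in vehicle replicates 1 to 4. The mean log2 ratio differed by 0.14 between the groups, and leaving out 1 library at a time moved that difference from -0.21 to 0.53, so its sign depends on single libraries. The ratio does depend on how fragments were divided between mitochondrial genes and their nuclear copies, described below. With the full-length copies added to the mRNAs, it ran from 0.48 to 1.36 with tacrolimus and from 0.28 to 1.37 with vehicle, and the groups again overlapped.

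**Figure D3:**
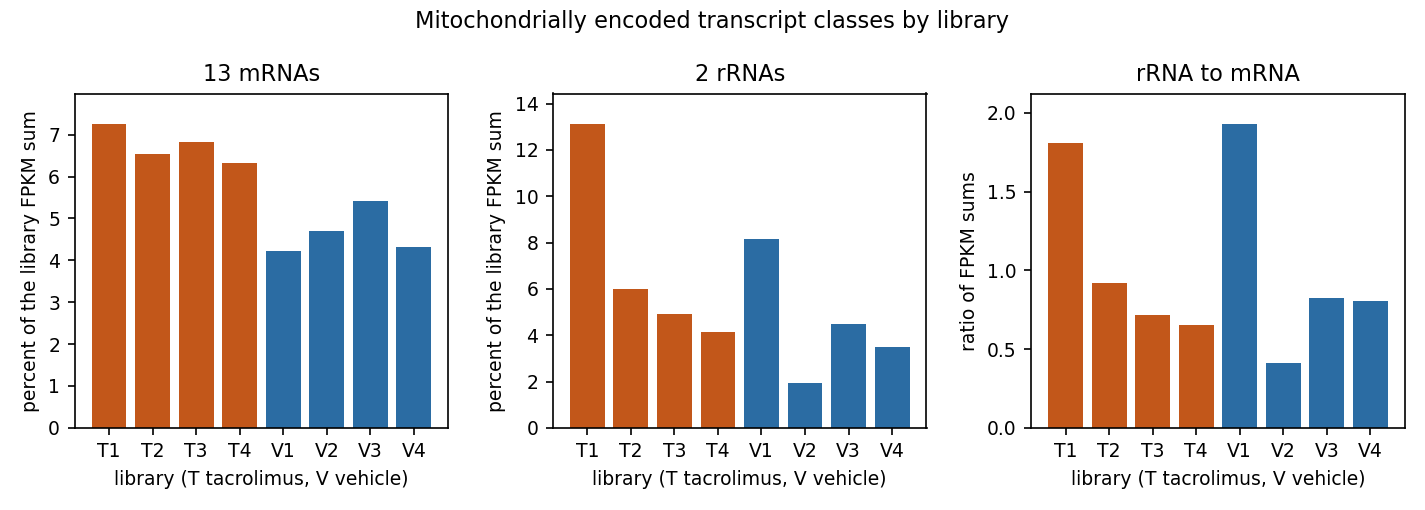
Summed FPKM of the 13 mRNAs (left) and the 2 rRNAs (middle) as a percent of each library's summed FPKM, and the ratio of the sums (right), by library. Tacrolimus (T1 to T4) is orange and vehicle (V1 to V4) is blue. The mRNA bars do not overlap between the groups, while T1 and V1 hold the highest rRNA share and ratio of their group.

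The 2 rRNAs, the 12S rRNA of the small and the 16S rRNA of the large mitochondrial ribosomal subunit, had the highest levels of the 14 genes in every library but vehicle replicate 2, where mt-Atp6 was higher than both. mt-Rnr1 (12S, chrM:70-1024) was at 61769, 28200, 23243 and 19738 FPKM with tacrolimus and 39829, 9129, 21268 and 16775 FPKM with vehicle. The log2 difference was 0.66 (SE 0.47), with an adjusted p of 0.471 (limma). mt-Rnr2 (16S, chrM:1094-2675) was at 57283, 26064, 20888 and 17588 FPKM with tacrolimus and 34348, 8866, 19258 and 14110 FPKM with vehicle. Its log2 difference was 0.68 (SE 0.46), with an adjusted p of 0.444 (limma). As libraries were left out 1 at a time, the difference moved from 0.30 to 1.01 for mt-Rnr1 and from 0.32 to 1.02 for mt-Rnr2, the same 3 libraries having the most weight. Both rRNAs overlapped between the groups and ranked the libraries of each group alike. The ratio of mt-Rnr1 to mt-Rnr2 was 1.08 to 1.12 with tacrolimus and 1.03 to 1.19 with vehicle, a range far narrower than that of either rRNA.

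Complex I, the NADH dehydrogenase, takes 7 of its core subunits from the mitochondrial genome. The mRNAs of mt-Nd1 to mt-Nd6, without mt-Nd4l, together averaged 16461 ± 1515 FPKM with tacrolimus and 11679 ± 735 FPKM with vehicle (SD, n = 4 each), 1.41-fold, with no overlap. mt-Nd1 (chrM:2751-3707) was the most abundant of them. It stood at 6478, 5982, 6464 and 5691 FPKM with tacrolimus and 3617, 5673, 5078 and 4825 FPKM with vehicle. The lowest tacrolimus library was only just above the highest vehicle library, and the log2 difference was 0.38 (SE 0.17), with an adjusted p of 0.296 (limma). Without vehicle replicate 1 that difference was 0.25. mt-Nd2 (chrM:3914-4951) had the smallest p of the complex I genes. It was at 4063, 3600, 3031 and 2646 FPKM with tacrolimus and 2416, 1759, 2332 and 2087 FPKM with vehicle. All 4 tacrolimus libraries were above all 4 vehicle libraries, at a log2 difference of 0.63 (SE 0.18), with an unadjusted p of 0.00578 and an adjusted p of 0.193 (limma). mt-Nd4 (chrM:10167-11544) averaged 3169 ± 199 against 2257 ± 300 FPKM (SD, n = 4 each) and did not overlap, at a log2 difference of 0.50.

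The remaining complex I mRNAs overlapped between the groups. mt-Nd3 (chrM:9459-9806) had a log2 difference of 0.34 (SE 0.25), which was 0.16 without vehicle replicate 1, 0.22 without tacrolimus replicate 3 and 0.54 without vehicle replicate 4, and ranged from 582 to 1036 FPKM with tacrolimus and 445 to 974 FPKM with vehicle. mt-Nd5 (chrM:11742-13565) was at 2714, 2051, 1413 and 1573 FPKM with tacrolimus and 1502, 840, 1114 and 1230 FPKM with vehicle. Only vehicle replicate 1, above tacrolimus replicate 3, made the groups of mt-Nd5 overlap, and the log2 difference was 0.71 (SE 0.24), with an adjusted p of 0.210 (limma).

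mt-Nd6 (chrM:13552-14070), also a complex I subunit, is the single mRNA transcribed from the opposite strand. It was at 1263, 1194, 786 and 925 FPKM with tacrolimus and 842, 421, 598 and 697 FPKM with vehicle. The groups overlapped through vehicle replicate 1, which lay above tacrolimus replicate 3. The mean was 1042 ± 224 against 639 ± 177 FPKM (SD, n = 4 each), 1.63-fold, and the log2 difference was 0.72 (SE 0.23), with an adjusted p of 0.201 (limma). The 12 mRNAs of the other strand averaged 59811 ± 3717 and 41751 ± 5235 FPKM (SD, n = 4 each), 1.43-fold. For every 100 FPKM of those 12, mt-Nd6 had 1.96, 2.06, 1.30 and 1.65 with tacrolimus and 2.24, 0.97, 1.23 and 1.85 with vehicle. These values overlapped, so no difference between the strands was resolved with 4 mice per group. Because it is not given whether fragments were counted by strand, the level of mt-Nd6 could include fragments of the opposite strand, which was not tested. mt-Nd6 and mt-Nd5 share 14 bases on opposite strands, and the ratio of mt-Nd6 to mt-Nd5 stayed between 0.47 and 0.59 in all 8 libraries, with no separation of the groups.

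mt-Cytb (chrM:14145-15288), cytochrome b, is the single mitochondrial subunit of complex III. It was at 8177, 8066, 8646 and 7673 FPKM with tacrolimus and 4494, 6667, 7008 and 4766 FPKM with vehicle. The tacrolimus libraries lay close together and above all vehicle libraries, at 8141 ± 401 against 5734 ± 1287 FPKM (SD, n = 4 each). The log2 difference was 0.53 (SE 0.19), with an adjusted p of 0.222 (limma).

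Complex IV, cytochrome c oxidase, takes its 3 catalytic core subunits from mt-Co1, mt-Co2 and mt-Co3. Their mRNAs summed to 22086 ± 3078 FPKM with tacrolimus and 15058 ± 2581 FPKM with vehicle (SD, n = 4 each), 1.47-fold, with no overlap. mt-Co1 (chrM:5328-6872) was at 12358, 8344, 8929 and 8164 FPKM with tacrolimus and 6602, 6664, 7906 and 4645 FPKM with vehicle. mt-Co2 (chrM:7013-7696) was at 12759, 11230, 13327 and 10903 FPKM with tacrolimus and 6751, 8129, 10266 and 7607 FPKM with vehicle. Neither overlapped between the groups. The log2 difference was 0.55 (SE 0.22) for mt-Co1, with an adjusted p of 0.243 (limma). For mt-Co2 it was 0.57 (SE 0.18), with an adjusted p of 0.202 (limma). mt-Co3 (chrM:8607-9390) behaved unlike both, as described with its nuclear copy below.

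Complex V takes the proton channel subunit from mt-Atp6 and a small accessory subunit from mt-Atp8. mt-Atp6 (chrM:7927-8607) was at 12370, 13067, 13822 and 14022 FPKM with tacrolimus and 8260, 9471, 10654 and 8255 FPKM with vehicle. All tacrolimus libraries were above all vehicle libraries, at a log2 difference of 0.55 (SE 0.17), with an adjusted p of 0.195 (limma). mt-Atp8 (chrM:7766-7969) was at 697, 1247, 747 and 693 FPKM with tacrolimus and 552, 911, 827 and 751 FPKM with vehicle. It overlapped and had the smallest log2 difference of the 14 genes, 0.13 (SE 0.23), with an adjusted p of 0.772 (limma). The difference of mt-Atp8 was -0.071 without tacrolimus replicate 2 and -0.014 without vehicle replicate 1. Both reading frames lie on 1 transcript, and the 43 bases they share are in capitals in the stretch chrM:7902-7994 (+ strand, GRCm38), with the end of mt-Atp8 alone before them and mt-Atp6 alone after them.
mt-Atp8 to mt-Atp6: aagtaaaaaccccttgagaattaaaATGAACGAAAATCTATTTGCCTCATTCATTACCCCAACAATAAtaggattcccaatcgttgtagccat
mt-Atp6 was listed above mt-Atp8 in every library, but with mt-Atp8 this short the sizes of the levels are not compared. Fragments from the shared bases cannot be told apart between these genes.

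The shares of the complexes in the mRNA sum did not separate the groups. Complex I made up 27.0% ± 1.5 of the mRNA sum with tacrolimus and 27.8% ± 3.1 with vehicle (SD, n = 4 each). Complex III made up 13.4% in both, complex IV 36.2% and 35.4%, and complex V 23.4% in both. All 4 shares overlapped between the groups, and their means differed by less than the SD of either group.

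**Figure D4:**
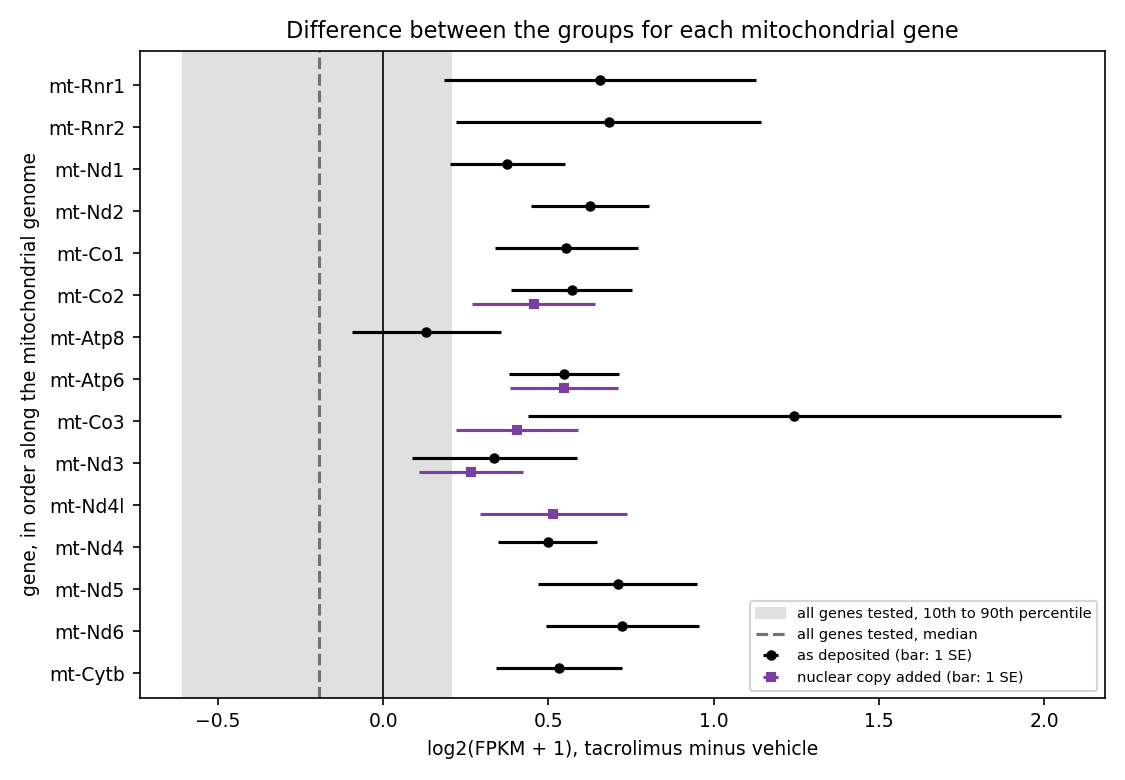
Difference between the groups on the log2(FPKM + 1) scale (horizontal axis) for each mitochondrial gene in genome order (vertical axis). Black points are the values as deposited, purple squares those with a near-identical nuclear copy added, bars are 1 SE, and the grey band is the range from the 10th to the 90th percentile of all genes tested (-0.60 to 0.21). Black points run from 0.13 for mt-Atp8 to 1.24 for mt-Co3, whose difference is 0.40 with its copy added.

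Copies of mitochondrial DNA also sit in the nuclear genome, and 7 of them are nearly identical to a mitochondrial gene. All 7 are annotated as unprocessed pseudogenes on the - strand of chromosome 1, between bases 24611535 and 24616197 (GRCm38). Of these, 5 cover a whole mitochondrial gene but for its last 1 to 3 bases, namely Gm28661 (a copy of mt-Co2), Gm10925 (mt-Atp6), Gm28437 (mt-Co3), Gm28438 (mt-Nd3) and Gm10222 (mt-Nd4l). The other 2 match a part, Gm29216 the last 483 of 1545 bases of mt-Co1 and Gm28439 the first 876 of 1378 bases of mt-Nd4. The 12S and 16S rRNAs, mt-Nd1, mt-Atp8, mt-Nd5, mt-Nd6 and mt-Cytb share no stretch of 100 bases with an annotated nuclear transcript. The following windows show how alike the copies are, since a fragment from an identical stretch cannot be told apart between a gene and its copy. The windows of mt-Nd3 and mt-Co3 with their copies lie at chrM:9459-9486 and chr1:24613092-24613119, and at chrM:8607-8666 and chr1:24613912-24613971. Those of mt-Nd4l and its copy lie at chrM:9877-9936 and chr1:24612641-24612700. Each is read on the gene's own strand, + for the mitochondrial genes and - for the copies. Capitals mark the 1 mismatch between mt-Nd3 and Gm28438, T3C counted from the first base of mt-Nd3.
mt-Nd3: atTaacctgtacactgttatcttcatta
Gm28438: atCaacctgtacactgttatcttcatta
mt-Co3: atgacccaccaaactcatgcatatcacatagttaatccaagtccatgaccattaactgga
Gm28437: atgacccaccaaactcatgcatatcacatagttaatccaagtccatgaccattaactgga
mt-Nd4l: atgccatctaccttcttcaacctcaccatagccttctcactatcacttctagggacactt
Gm10222: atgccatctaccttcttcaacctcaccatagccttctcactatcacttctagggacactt

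mt-Co3 and Gm28437 are identical over all 783 bases of the copy, and most of the pair's FPKM was listed for the copy. mt-Co3 itself was at 1082, 320, 425 and 500 FPKM with tacrolimus and 1144, 77.5, 372 and 69.4 FPKM with vehicle. Its groups overlapped, with vehicle replicate 1 the highest of all 8 libraries, and it stood well below mt-Co1 and mt-Co2 in every library. Gm28437 was at 17480, 17094, 20583 and 16496 FPKM with tacrolimus and 12484, 14415, 16164 and 11429 FPKM with vehicle, 91.6% to 99.5% of the pair. mt-Co3 as deposited had a log2 difference of 1.24 (SE 0.81), with an adjusted p of 0.427 (limma), which was 0.70 without vehicle replicate 4, 0.75 without vehicle replicate 2 and 2.04 without vehicle replicate 1. Added together, the pair was at 18563, 17415, 21008 and 16996 FPKM with tacrolimus and 13629, 14493, 16536 and 11498 FPKM with vehicle. The sums did not overlap, at a log2 difference of 0.40 (SE 0.18) and an adjusted p of 0.289 (limma). With the full-length copies added to their genes, mt-Co3 had the highest mean of the 13 mRNAs. Complex IV then made up 49.2% of the mRNA sum with tacrolimus and 49.9% with vehicle. The partial copies of mt-Co1 and mt-Nd4 were not added in these values.

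mt-Nd4l was listed at 0 in all libraries, while Gm10222, identical to it over 294 bases, was at 2064, 1434, 1224 and 1037 FPKM with tacrolimus and 1103, 751, 989 and 1098 FPKM with vehicle. The groups overlapped, and the log2 difference of the pair was 0.52 (SE 0.22), with an adjusted p of 0.269 (limma). For mt-Atp6 the split was the reverse, with Gm10925 at 0 in every library. Gm28438 held 58.9% to 77.7% of its pair with mt-Nd3, and the pair's log2 difference was 0.27 (SE 0.16). Gm28661 was a small part of its pair with mt-Co2, at 31.4 FPKM in tacrolimus replicate 1 and 763 to 2385 FPKM in the other 7 libraries, and the pair's log2 difference was 0.46 (SE 0.19). The partial copies were listed above the genes they match. Gm29216 averaged 13608 ± 5427 FPKM with tacrolimus and 8270 ± 1964 FPKM with vehicle, and Gm28439 9037 ± 656 and 6079 ± 593 FPKM (SD, n = 4 each), both without overlap. The other 13 copies found, which are less alike, reached at most 39.8 FPKM. How fragments that match both a gene and its copy were divided is not given in the sources used here, and whether any of them came from the nuclear copies was not tested.

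With the 5 full-length copies added to their genes, 15 mitochondrial genes could be compared and the direction was the same. All 15 had the higher mean with tacrolimus, and 8 had groups that did not overlap. By limma, 9 were higher at an unadjusted p under 0.05, and 0 had an adjusted p under 0.05. Of the 13029 genes tested in this setting, 24.3% had the higher mean. Among them 209 were higher at that unadjusted p, and 100 were higher without overlap. The mRNA sum became 83052 ± 4636 against 60030 ± 7690 FPKM (SD, n = 4 each), 1.38-fold, with no overlap. This sum leaves out the partial copies of mt-Co1 and mt-Nd4.

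**Figure D5:**
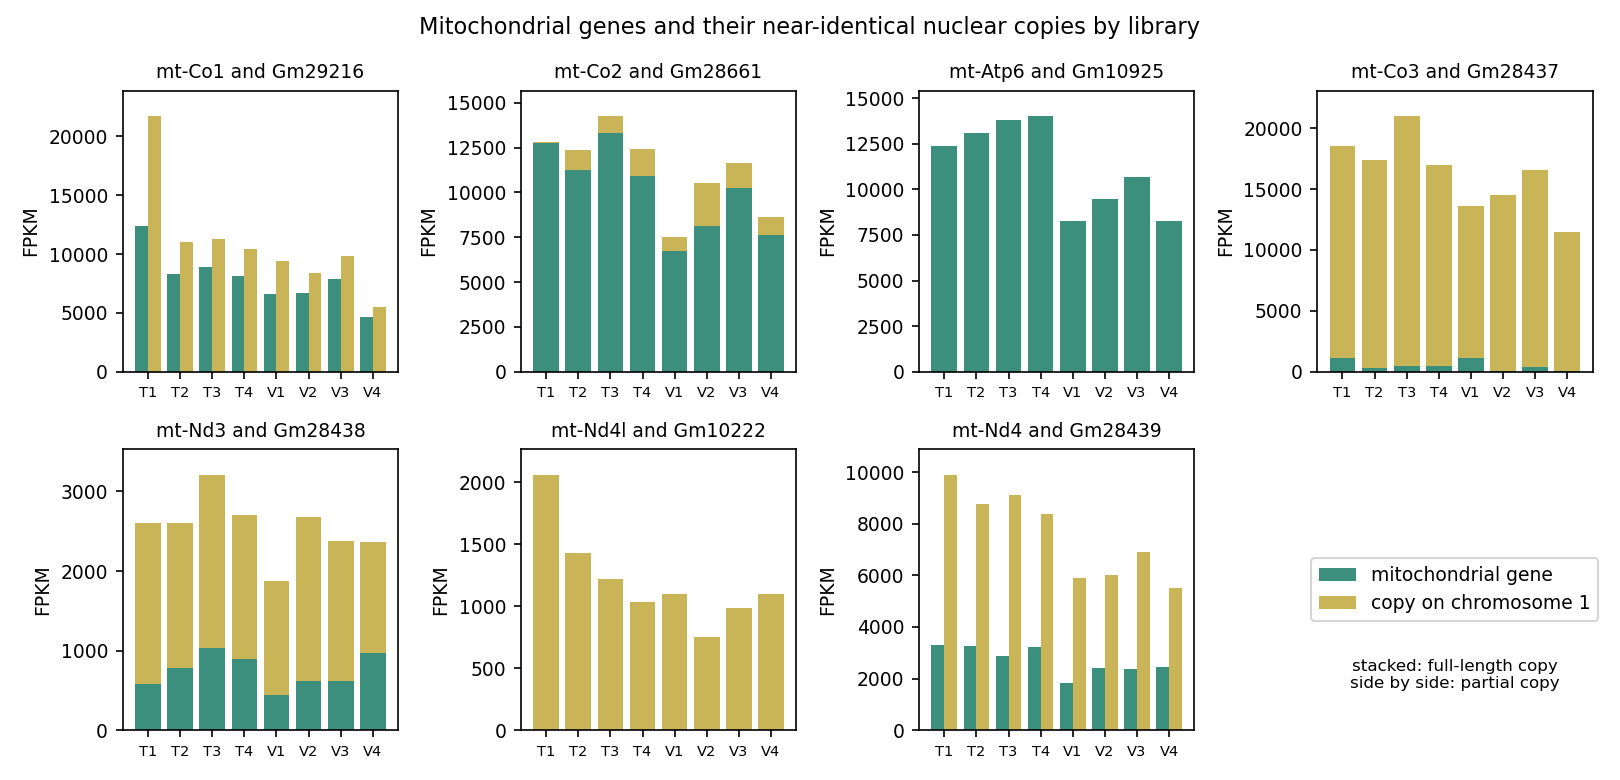
FPKM (vertical axes, each with its own scale) of 7 mitochondrial genes (green) and their near-identical copies on chromosome 1 (yellow) in each library (T1 to T4 tacrolimus, V1 to V4 vehicle). Bars are stacked for the 5 full-length copies and side by side for the 2 partial ones. Nearly all of the mt-Co3 pair and all of the mt-Nd4l pair lie with the copy, and all of the mt-Atp6 pair with the mitochondrial gene.

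The nuclear genes that copy, transcribe, process and translate the mitochondrial genome were compared from lists of known members. Of 93 listed genes, 91 were tested, 0 were called at an adjusted p under 0.05 (limma), and at an unadjusted p under 0.05 there were 0 higher and 11 lower. The background of lower genes at that level was 15.8%. A lower mean with tacrolimus was found for 82 of the 91, 90.1%, where 75.7% of all genes were lower, and the median difference of -0.19 equalled that of all genes. With median-of-ratios scaling, 46 of the 91 had a lower mean, the median was -0.00, and 3 were lower at an unadjusted p under 0.05 (6.11% of all genes). The count of 11 was 7 without tacrolimus replicate 3, and likewise 7 without vehicle replicate 2. Over all genes, the count of lower genes was 2056 as reported, and 1313 and 1665 without those libraries. The median of these genes lay with that of all genes, while that of the mitochondrial transcripts lay on the other side of 0.

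Among the 9 transcription genes, 7 had a lower mean. Tfam, which packages mitochondrial DNA and starts its transcription, averaged 15.4 ± 4.6 against 22.4 ± 2.5 FPKM (SD, n = 4 each), a log2 difference of -0.54 with an adjusted p of 0.226 (limma). Mterf3, a repressor of that transcription, averaged 13.6 ± 1.5 against 16.8 ± 1.2 FPKM without overlap, at a log2 difference of -0.29. Polrmt, the mitochondrial RNA polymerase, averaged 8.83 ± 3.67 against 11.0 ± 4.9 FPKM and overlapped. Of the 11 replication and nucleoid genes, 10 had a lower mean, Polg and Polg2, the subunits of the mitochondrial DNA polymerase, having the smallest p at log2 differences of -0.50 and -0.42. Of the 12 tested genes of RNA cleavage and processing, 11 had a lower mean, with Ptcd1 at -0.50 and Fastkd3 at -0.37. Of the 8 genes of polyadenylation, stability and decay, 7 had a lower mean. Mtpap, the mitochondrial poly(A) polymerase, averaged 9.59 ± 1.12 against 12.6 ± 1.2 FPKM without overlap, at a log2 difference of -0.36 with an adjusted p of 0.264 (limma), and Grsf1, an RNA-granule protein, was at -0.19. None of these genes passed the test.

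The genes that modify mitochondrial tRNAs and rRNAs had a lower mean in 21 of 21 cases, at a median of -0.31, and 5 of them were lower at an unadjusted p under 0.05. Over all genes, 75.7% had a lower mean and 15.8% were lower at that p. Nsun3, a cytosine methyltransferase of the mitochondrial methionine tRNA, averaged 4.61 ± 0.91 against 7.43 ± 1.47 FPKM without overlap, at -0.59 with an adjusted p of 0.206 (limma). Trmt61b, a methyltransferase of mitochondrial RNA, was at -0.54. With median-of-ratios scaling 14 of the 21 had a lower mean, at a median of -0.12, and 1 instead of 5 was lower at an unadjusted p under 0.05 (6.11% of all genes). Of 19 tested genes of tRNA charging, 16 had a lower mean. Fars2 and Nars2, which charge the phenylalanine and asparagine tRNAs, averaged 15.7 ± 2.2 against 23.5 ± 2.4 and 3.26 ± 0.34 against 5.52 ± 0.75 FPKM (SD, n = 4 each), neither with overlap, both at an adjusted p of 0.193 (limma). Lars2, the leucine enzyme, was listed at 4427 ± 551 and 4490 ± 1253 FPKM, while the highest mean of the other 19 charging genes was 23.8 FPKM for Iars2. Whether all fragments listed for Lars2 came from the mRNA of the enzyme was not tested. Of the 11 translation factors, 10 had a lower mean, among them Oxa1l, which inserts new subunits into the inner membrane, at -0.54, and Tsfm, an elongation factor, at -0.28.

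The nuclear-encoded subunits of the respiratory complexes lay between the mitochondrial mRNAs and the bulk of all genes. All 75 listed were tested, 0 were called at an adjusted p under 0.05 (limma), and 57 had a higher mean with tacrolimus, 76.0%, where 24.3% of all genes did. Their median difference was 0.08. At an unadjusted p under 0.05 there were 0 higher, where 1.6% of all genes were, and 1 lower, Sdha, the flavoprotein subunit of complex II, at 111 ± 14 against 141 ± 15 FPKM (SD, n = 4 each). This count depends on the scaling: with median-of-ratios scaling 26 were higher and 0 lower, where 5.21% of all genes were higher, and 73 of the 75 had a higher mean.

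By complex, a higher mean was found for 27 of 36 subunits of complex I, 3 of 4 of complex II, 7 of 9 of complex III, 10 of 11 of complex IV and 10 of 15 of complex V. Their median differences were 0.08, 0.02, 0.16, 0.19 and 0.08. Of complex I, Ndufb2 averaged 416 ± 62 against 322 ± 62 FPKM and Ndufb4 310 ± 21 against 256 ± 62 FPKM (SD, n = 4 each). Of complex III, Uqcrq was at a log2 difference of 0.27 and Uqcr11 at 0.27, and of complex IV, Cox7c was at 0.28 and Cox7b at 0.30. Of complex V, Atp5a1, the alpha subunit of the F1 head, was at -0.18 and Atp5k at 0.19, and of complex II, Sdhb was at 0.06. All of these overlapped between the groups. The mitochondrially encoded mRNAs of complexes I, III, IV and V were thus 1.41 to 1.47-fold apart, at a median log2 difference of 0.55 over the 12 genes tested, against 0.08 for the nuclear subunits.

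Markers of other cells were summed in the same way, and the ranges of the sums overlapped between the groups for each list given here. All 6 macrophage and monocyte markers (Lyz2, C1qa, C1qb, Csf1r, Adgre1 and Cd68) had a lower mean with tacrolimus, as did 75.7% of all genes. They summed to 193 to 433 FPKM against 340 to 1385 FPKM. At an unadjusted p under 0.05 (limma), 5 of these 6 and all 7 T cell markers were lower, where 15.8% of all genes were. With median-of-ratios scaling, 3 of the 6 and 6 of the 7 were lower at that level, where 6.11% of all genes were. The neutrophil markers S100a8 and S100a9 summed to 12.7 to 44.8 against 30.1 to 333 FPKM. Both erythroid markers, Hbb-bs and Hba-a1, had a higher mean, where 24.3% of all genes did, and summed to 755 to 5061 against 76.8 to 3614 FPKM. The 4 fibroblast and endothelial markers (Col1a1, Col3a1, Pecam1 and Cdh5) summed to 26.0 to 44.5 against 32.2 to 53.9 FPKM. B cell markers (Cd79a and Ms4a1) summed to 0.75 to 2.53 against 1.19 to 3.90 FPKM, and natural killer cell markers (Ncr1 and Klrb1c) to 11.2 to 16.9 against 6.61 to 20.1 FPKM. No listed marker was at 0 in every library. The median log2 difference was -1.85 for the 7 T cell markers and -0.02 for the 6 melanoma markers, against 0.56 for the 14 mitochondrial genes. The part of these cell types in the mitochondrial differences was not tested. Malat1, an RNA that stays in the nucleus, averaged 4643 ± 726 against 4015 ± 1825 FPKM (SD, n = 4 each), a log2 difference of 0.30 with an adjusted p of 0.585 (limma).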

How the data were processed

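The groups and replicate numbers came from the sample titles. These titles do not name mice, and each replicate number was taken as 1 mouse, 4 per group. The submitters' processing notes list DESeq2 1.24.0, RSEM 1.3.1 and HISAT2 2.1.0 and the build GRCm38.p6, and give no role or order. The authors deposited 1 value per gene and library already scaled for transcript length and library size, inferred from the values to be FPKM since no header names the unit. The values summed to 890182 to 926808 per library, and low values fall at steps that shrink with transcript length. After that length was allowed for, 85.5% to 87.2% of low values of genes with a single transcript of 500 to 1500 bases lay within 0.15 steps of a whole fragment, which gave the depth estimates. Lengths, symbols and coordinates are those of GENCODE M21, and 346 identifiers had no symbol. Fragment numbers estimated for the measured mitochondrial genes over 500 bases were at least 600 (mt-Co3), 1720 (mt-Nd6) and 20750 (all others), a counting SD of 4.1%, 2.41% and under 0.7%. For genes with a near-identical nuclear copy, such as mt-Co3, this SD leaves out the uncertainty in how shared fragments were divided. No number was estimated for mt-Atp8 and mt-Nd3, which are shorter.

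Genes that reached an FPKM of 1 in 4 or more libraries were compared on log2(FPKM + 1), with a pseudocount of 1, by limma 3.58.1 in R 4.3.3 (lmFit, eBayes with trend), with a term for treatment alone and p-values adjusted by Benjamini-Hochberg over all 13032 genes, at 0.05. Differences on this scale understate the change of low genes. The limma step was tested on simulated data. Nuclear copies were searched among annotated transcripts with BLAST+ 2.17.0 (identity of 85% or more over at least 150 bases), and near-identical means 99% or more. At most 0.222% of values were identical in a pair of libraries. Sums, shares and ratios over genes were described without a test. All mitochondrial genes were accounted for. Of each nuclear list the 2 genes with the smallest unadjusted p were named, and Polrmt, Lars2, Iars2 and Malat1 were added after their values were seen. The members and lists were chosen with earlier results of these data known. The alternatives were other pseudocounts, filters, scalings and variance estimates, a replicate block, and each library left out. Adding nuclear copies was chosen after seeing the data.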

Additional observations from a re-analysis of the deposited data

Results flagged for a closer look

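In each group of 4 mice, a library was picked out where its gap to the nearest other library was large against the range of the group (Dixon's test at its 95% level). Of 82 groups of values screened over the mitochondrial genes, their shares and their class sums, 6 were picked out, and chance alone picks out about 1 in 20. The mt-Atp8 level in tacrolimus replicate 2 was 1247 FPKM, where the other 3 tacrolimus libraries were at 693 to 747. As a share of the mRNA sum the same library had 2.11% for mt-Atp8, against 1.06% to 1.22% in the others. The mt-Nd4 level was 2873 FPKM in tacrolimus replicate 3, against 3239 to 3293 in the others. In vehicle replicate 1, mt-Nd4 was at 1811 FPKM, against 2362 to 2453 in the others. mt-Co1 made up 18.8% of the mRNA sum in tacrolimus replicate 1, against 14.1% to 14.5% in the others. mt-Co2 made up 21.7% of the mRNA sum in tacrolimus replicate 3, against 19.0% to 19.4% in the others.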

How the results depend on the processing

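The differences of the 14 measured mitochondrial genes were recomputed under each alternative, which gave 252 values. Of these, 250 kept the sign as reported and 0 passed an adjusted p of 0.05, with adjusted p between 0.141 and 0.971 (limma). The 2 that turned sign were both of mt-Atp8, -0.071 without tacrolimus replicate 2 and -0.014 without vehicle replicate 1, and its difference ran from -0.071 to 0.23 as libraries were left out 1 at a time. The number of mitochondrial genes higher at an unadjusted p under 0.05 was 4 with no filter on low values and 7 to 10 under the other alternatives, against 8 as reported. Over all genes, that count was 426 of 28614 with no filter. Under the other alternatives it ran from 144 of 13032 without tacrolimus replicate 4 to 816 of 13023 with upper-quartile scaling. The number of mitochondrial genes higher without overlap was 7 to 9. Over all genes, it ran from 72 of 11040 with an FPKM of 1 or more in all 8 libraries to 483 of 13023 with upper-quartile scaling.

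Among the nuclear genes at an unadjusted p under 0.05, median-of-ratios scaling gave 1 higher and 3 lower machinery genes and 26 higher and 0 lower respiratory subunits. Over all genes, the split at that level was 208 higher and 2056 lower as deposited, 678 and 795 with median-of-ratios scaling, 816 and 700 with upper-quartile scaling, and 312 and 1482 when libraries were scaled to the sum outside the mitochondrial genome. Leaving out 1 library at a time gave 0 higher and 7 to 16 lower machinery genes, and 0 to 3 higher and 0 to 1 lower respiratory subunits. Over all 13032 genes, the same fits gave 144 to 289 higher and 1313 to 2500 lower genes. The 3 higher subunits came without vehicle replicate 2, and 2 came without tacrolimus replicate 1. The log2 difference of the mRNA sum stayed between 0.48 and 0.60 and that of the rRNA sum moved between 0.31 and 1.02. With vehicle replicate 1 left out, 1 gene over all genes was called at an adjusted p under 0.05, and it was not mitochondrial.

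With the replicate number as a block, 6 higher and 115 lower genes were called over all genes, but 0 mitochondrial ones. At an unadjusted p under 0.05 (limma), 9 of the 14 were higher. Over the 13032 genes tested with the block, 276 were higher and 2587 lower at that level. Whether the numbers pair mice is not stated in the sources used here. The correlations of same-numbered libraries were 0.215, 0.277, -0.020 and -0.022. Tacrolimus replicates 1 and 2 correlated best with their own number, and tacrolimus replicates 3 and 4 did not. With 4 mice per group, correlations split in this way cannot decide whether the mice were paired. With 4 mice per group the spread between mice limits all comparisons here, and nearly no transcript under 80 bases has a value in these files.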
